A study of Homo sapiens with 6 samples.

Results

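The folding chaperones of the endoplasmic reticulum (ER) were followed in 786O cells, an established human line of clear cell renal carcinoma that lacks functional VHL. The group comprised 10 genes, listed by name: HSPA5, HSP90B1, HYOU1, DNAJB9, DNAJC3, PDIA4, CRELD2, MANF, SDF2L1 and CALR. The list was drawn up with earlier results of these data known, and every probe set of the array annotated with exactly 1 gene symbol that is a listed gene was taken. All 10 genes were found, with 37 probe sets, among 18132 genes and 44988 probe sets tested. The 3 shPLEKHO1 arrays held RNA of cells given, by lentivirus, a short hairpin RNA against PLEKHO1, which codes for a pleckstrin homology protein that binds casein kinase 2. The 3 shNC arrays held RNA of cells labelled as the control. The protocol given for all 6 samples names a lentivirus, and the name shNC points to a control hairpin, which the labels do not describe further. The labels do not say how many hairpins were used or whether each replicate was a culture of its own. The p-values therefore cover the spread among these 6 arrays, and that spread may be technical.

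Proteins that enter the ER are bound by the Hsp70 protein BiP (HSPA5), which works with J-domain partners and exchange factors, while GRP94 (HSP90B1), the lectin chaperone calreticulin (CALR) and disulfide isomerases act on folding clients beside it. When unfolded protein builds up, 3 sensors (IRE1, PERK and ATF6) start the unfolded protein response. ATF6 and XBP1, the factor made by IRE1 splicing, then raise chaperone genes through ER stress response elements in their promoters. In cells of secretory or tumour origin these genes are active at rest and are widely read as a gauge of the load on the ER.

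Intensities below are the deposited linear values of a probe set on each array. A log2 difference is the shPLEKHO1 minus the shNC mean of log2(intensity + 1) after quantile normalization, given ± SE with 3 arrays a group. "Rose" and "fell" mean a limma adjusted p (Benjamini-Hochberg over 44988 probe sets) under 0.05. No filter on low values was applied, so all 37 probe sets were tested. Median intensity ranged from 55.7 to 57.1 over the arrays, and the number of arrays limits the precision. The brightest background control probe sets, those richest in G and C, read higher with shPLEKHO1. The top one read 2293, 2096 and 2209 with shPLEKHO1 and 1936, 1923 and 1920 with shNC. Most of the dimmer background sets overlapped between groups, and the cause was not tested. Log2 values correlated at 0.998 between any pair of arrays of 1 group and at 0.988 to 0.989 between groups. PLEKHO1, read by 1 probe set, measured 110, 116 and 97.4 on the shPLEKHO1 arrays and 135, 143 and 126 on the shNC arrays. It fell by 19.9% (log2 difference -0.32 ± 0.08, limma adjusted p = 0.0124), and the exact two-sided permutation test gave p = 0.1, the smallest that 3 against 3 arrays allow. Of 9 renal carcinoma markers 7 were measured. By the brightest probe set 2 fell and 3 rose, where 15.6% of all genes fell and 17.6% rose. The renal transcription factors PAX2 (-0.33 ± 0.08) and PAX8 (-0.25 ± 0.07) fell, while the keratins KRT18 (0.52 ± 0.06) and KRT8 (0.32 ± 0.05) and the hypoxia factor EPAS1 (0.54 ± 0.07) rose. CA9 and NDUFA4L2 were not analysed here. Of 7 measured markers of leukocytes, endothelium and fibroblasts none passed the test in limma by its brightest probe set, 1 of their 24 probe sets rose, and the summed intensity of their brightest probe sets was 294 to 339 with shPLEKHO1 and 299.3 to 304 with shNC. The leukocyte marker PTPRC was the dimmest of them and near the floor, at 6.82 ± 0.244 with shPLEKHO1 and 6.39 ± 0.484 with shNC (SD, n = 3 each). CD68, also a leukocyte marker, was above the median of every array. It read 146 ± 11.8 with shPLEKHO1 and 128 ± 4.68 with shNC (SD, n = 3 each) and did not pass (log2 difference 0.19 ± 0.08, limma adjusted p = 0.0969).

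The promoters of these genes are shown first because ER chaperone genes are known to be raised through stress response elements. The genes were listed as ER chaperones, so the share of them with an element is a description and not separate evidence. RefSeq promoters of GRCh38.p14 (250 bases before to 50 after the start) were searched on both strands for the ER stress response element, ERSE (CCAAT, then 9 bases of any kind, then CCACG), and for ERSE-II (ATTGG, then 1 base of any kind, then CCACG). An exact ERSE was found in HSPA5, HSP90B1, CRELD2 and CALR, and an exact ERSE-II in HYOU1 and SDF2L1. Over all 35116 promoters, 27 (0.0769%) held an ERSE and 19 (0.0541%) an ERSE-II. The stretches below hold every ERSE and ERSE-II found in the members, read 5′ to 3′ along the gene's own strand, with the parts of the element in capitals (CGTGG and ATTGG are CCACG and CCAAT read on the other strand). DNAJB9, DNAJC3, PDIA4 and MANF held no exact copy of either element in this window. Of these, DNAJB9, which rose, and MANF, which fell, are shown with their CCACG cores in capitals. DNAJC3 and PDIA4, which also fell by their brightest probe sets, are not shown.
HSPA5: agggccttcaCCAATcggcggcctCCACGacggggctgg
HSP90B1: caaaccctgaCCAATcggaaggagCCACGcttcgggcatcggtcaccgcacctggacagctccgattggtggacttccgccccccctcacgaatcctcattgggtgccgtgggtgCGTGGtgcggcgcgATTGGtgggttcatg
HYOU1: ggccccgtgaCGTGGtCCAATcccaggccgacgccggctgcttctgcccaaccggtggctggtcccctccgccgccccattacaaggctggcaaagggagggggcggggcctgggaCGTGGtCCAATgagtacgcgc
CRELD2: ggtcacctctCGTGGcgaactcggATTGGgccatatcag
SDF2L1: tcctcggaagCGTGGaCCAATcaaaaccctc
CALR: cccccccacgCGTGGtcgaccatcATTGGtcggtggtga
DNAJB9: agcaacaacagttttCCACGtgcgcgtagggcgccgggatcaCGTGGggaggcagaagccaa
MANF: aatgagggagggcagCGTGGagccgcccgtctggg

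All of these stretches lie upstream of the annotated start of their gene. The HSPA5 stretch is chr9:125241381-125241419 on the minus strand, and its ERSE spans -66 to -48. The HSP90B1 stretch is chr12:103930206-103930349 on the plus strand and holds 2 elements, from -194 to -176 and, reversed, from -89 to -71. The HYOU1 stretch is chr11:119057264-119057400 on the minus strand and holds 2 copies of ERSE-II, from -185 to -175 and from -79 to -69. HYOU1 was also the 1 member with the XBP1 and ATF6 site called UPRE (TGACGTGG), from -188 to -181, where it overlaps the first ERSE-II; 0.729% of all promoters hold it. The ERSE of CRELD2 spans -80 to -62 within chr22:49918544-49918582, the ERSE-II of SDF2L1 spans -188 to -178 within chr22:21642104-21642134, and the ERSE of CALR spans -225 to -207 within chr19:12938374-12938412, all 3 genes on the plus strand. The DNAJB9 stretch is chr7:108569785-108569846 and the MANF stretch chr3:51385134-51385168, both on the plus strand. The core CCACG, which is part of every ERSE and ERSE-II, was in all 11 member promoters (PDIA4 has 2 starts) and in 38.1% of all promoters. The element bound by ATF4, CARE (TGATGNAAT), was in no member promoter and in 0.991% of all. A match is a run of letters and does not show that a factor binds there.

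**Figure D1:**
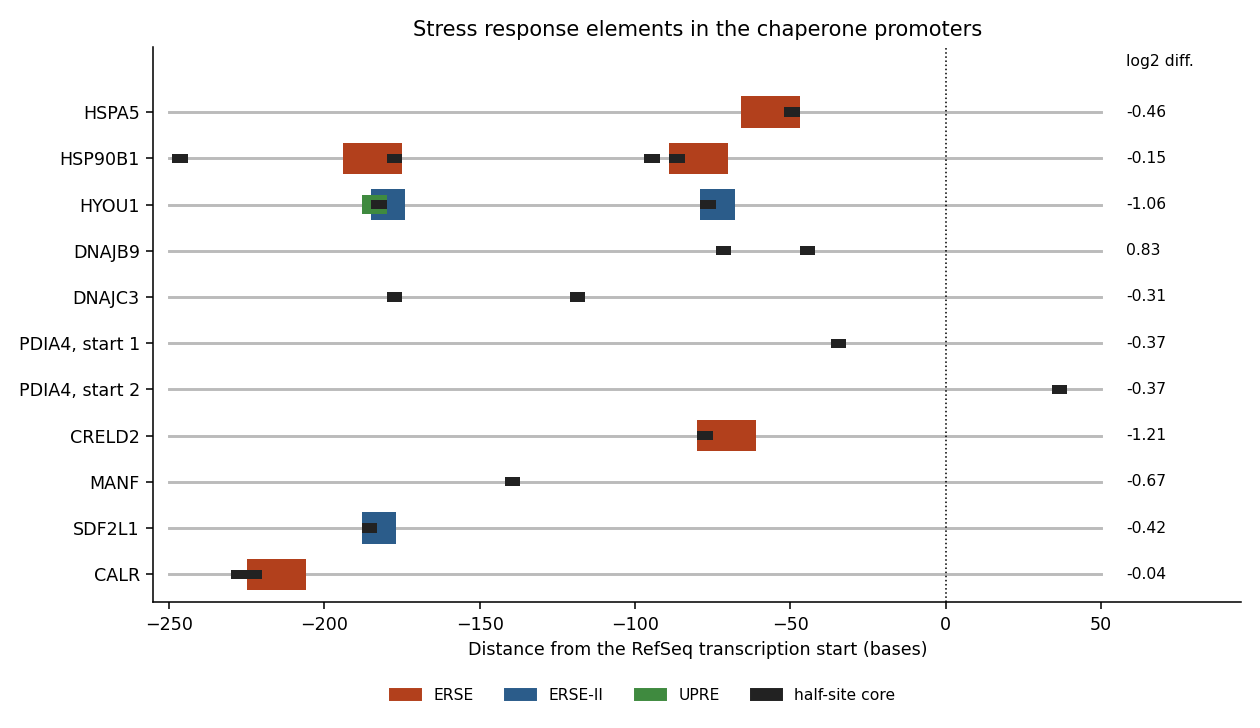
Positions of the elements found in the 11 promoters of the 10 chaperone genes, as distance in bases from the RefSeq transcription start (dotted line), with the log2 difference of the brightest probe set, shPLEKHO1 minus shNC, at the right. Red boxes are ERSE, blue ERSE-II, green UPRE and black the CCACG core. HSP90B1 holds 2 copies of ERSE, and HYOU1 holds 2 of ERSE-II and a UPRE that overlaps the first. HSPA5, CRELD2 and CALR hold 1 ERSE each and SDF2L1 holds 1 ERSE-II.

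Most of the folding chaperones were lower with shPLEKHO1, 1 was higher, and calreticulin did not pass the test on any of its probe sets. In RNA of whole cultures, fewer cells with a transcript and less of it per cell cannot be told apart. Of the 37 probe sets 25 fell, where 15.7% of all probe sets tested fell, and 2 rose, where 17.3% of all did. The median log2 difference was -0.31 over the 37 probe sets and 0.01 over all probe sets. At least 1 probe set fell in 8 of the 10 genes, both that rose belonged to DNAJB9, and no gene had probe sets that passed in both directions. Every shPLEKHO1 array lay below every shNC array in 28 of the 37 probe sets, against 20.8% of all probe sets, and above in 3, against 23.8%. Read by the brightest probe set of each gene, 7 of the 10 genes fell, where 15.6% of all genes did, and 1 rose, where 17.6% of all genes did. The other 2, HSP90B1 and CALR, did not pass by that probe set. Probe sets of 1 gene partly share their target sequence and are not independent measurements.

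**Figure D2:**
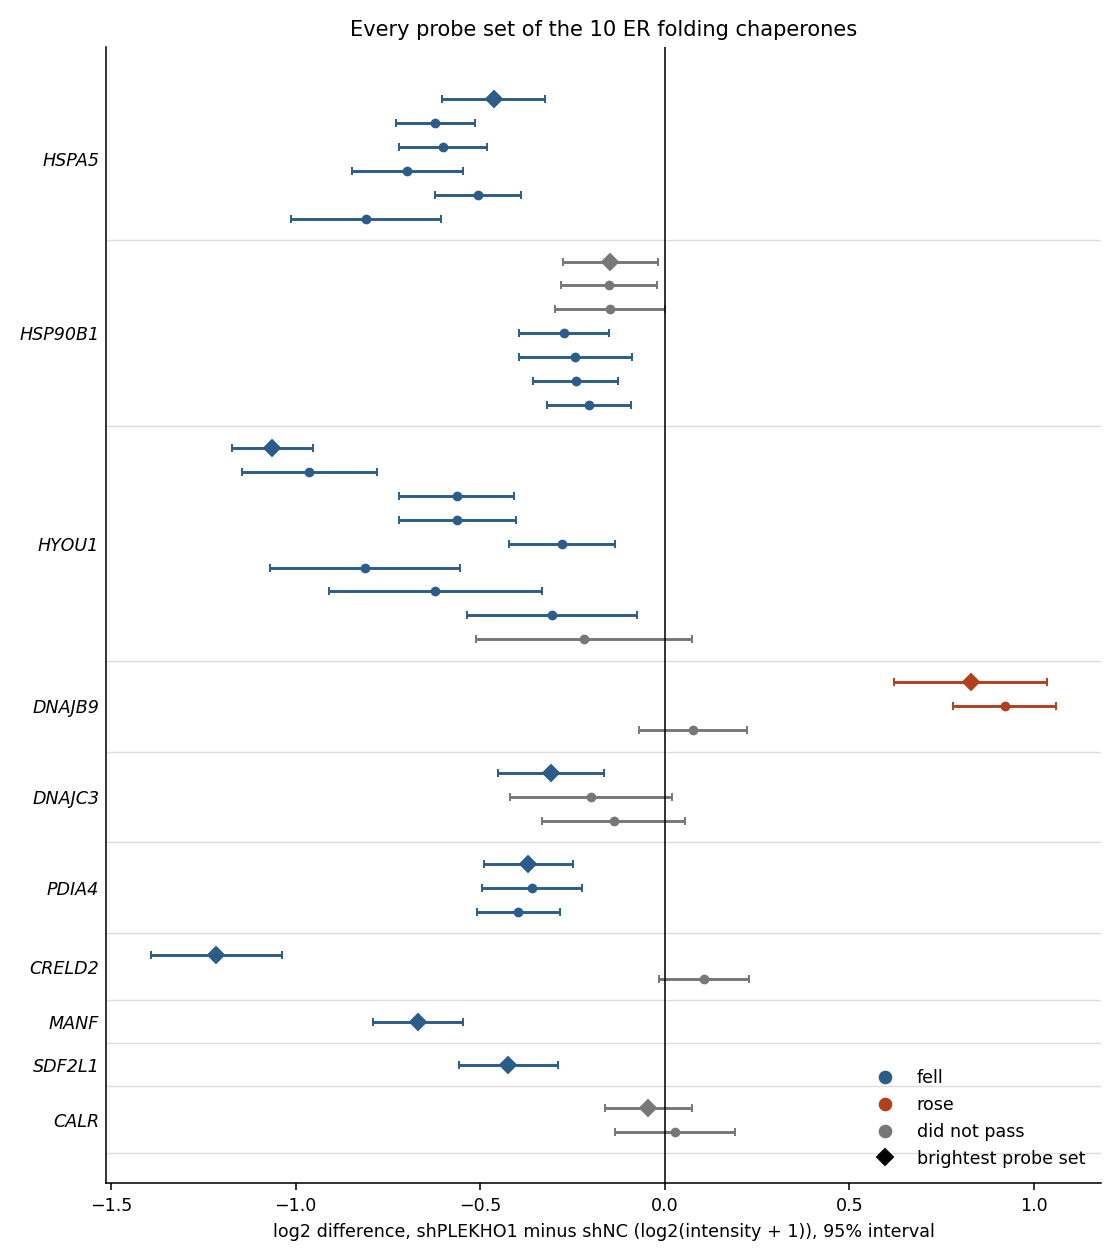
Log2 difference, shPLEKHO1 minus shNC, with its 95% interval for each of the 37 probe sets, grouped by gene and ordered from bright to dim within a gene. All 6 probe sets of HSPA5 lie left of 0, the 2 brighter probe sets of DNAJB9 lie right of it, and both of CALR span it.

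HSPA5 codes for BiP, the Hsp70 of the ER lumen, which also holds the stress sensors inactive. Its brightest probe set read 3997, 3746 and 3821 on the shPLEKHO1 arrays and 5079, 5399 and 5296 on the shNC arrays. The groups did not overlap, and the gap between them was wider than the spread within either. The mean was 3855 ± 128 with shPLEKHO1 and 5258 ± 164 with shNC (SD, n = 3 each). HSPA5 fell by 27.5% on this probe set, with a 95% interval of the log2 difference from -0.60 to -0.33 (-0.46 ± 0.06, limma adjusted p = 0.000516). All 6 HSPA5 probe sets fell and none overlapped between groups, with log2 differences from -0.81 to -0.46 and a median of -0.61. The second brightest, at 3327 ± 65.6 with shPLEKHO1 and 5174 ± 101 with shNC (SD, n = 3 each), was 1.54-fold lower. The dimmest HSPA5 probe set read 50.4, 59.6 and 47.5 with shPLEKHO1 and 99.0, 90.8 and 87.5 with shNC, and it had the largest HSPA5 fall, 1.75-fold.

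HYOU1 codes for GRP170, a large Hsp70 relative that serves BiP as a nucleotide exchange factor. Its brightest probe set read 278, 298 and 290.5 with shPLEKHO1 and 620, 589.9 and 606 with shNC. The values of each group lay close together, and those with shPLEKHO1 were near the midpoint between 0 and the shNC values. HYOU1 was 2.09-fold lower by this probe set (log2 difference -1.06 ± 0.05, 95% interval -1.17 to -0.95, limma adjusted p = 2.69e-06). Of its 9 probe sets 8 fell, and all 9 log2 differences were below 0, from -1.06 to -0.22. The extent of the fall varied between probe sets: the next brightest was 1.95-fold lower, at 132 ± 16.7 with shPLEKHO1 and 258 ± 8.25 with shNC, whereas one at 68.0 ± 5.08 with shPLEKHO1 and 82.7 ± 2.72 with shNC (SD, n = 3 each) was 1.21-fold lower. The probe set that did not pass read 30.6, 28.9 and 31.2 with shPLEKHO1 and 30.1, 45.03 and 31.7 with shNC, with shNC replicate 2 apart from the other 5 arrays. Another dim one, at 36.1 ± 2.19 with shPLEKHO1 and 45.1 ± 7.51 with shNC (SD, n = 3 each), passed narrowly (log2 difference -0.31 ± 0.10, limma adjusted p = 0.0485). It did not pass without shPLEKHO1 replicate 1 (0.0776), 2 (0.135) or 3 (0.0999) or without shNC replicate 2 (0.0674), where its log2 difference was -0.18.

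J-domain proteins of the ER deliver clients to BiP and start its ATPase cycle, and of the 2 in this group DNAJB9 rose and DNAJC3 fell. DNAJB9 codes for ERdj4, a J-domain protein that is induced by XBP1 and in mice and cells helps BiP to hold the sensor IRE1 inactive. Its brightest probe set read 313, 332 and 382 with shPLEKHO1 and 182, 189.9 and 209 with shNC. Every shPLEKHO1 array was above every shNC array. DNAJB9 was 1.78-fold higher (log2 difference 0.83 ± 0.09, 95% interval 0.62 to 1.04, limma adjusted p = 0.000192). A further probe set, at 120.5, 119 and 122 with shPLEKHO1 and 66.9, 59.4 and 64.1 with shNC, was 1.89-fold higher (0.92 ± 0.06, limma adjusted p = 1.45e-05). The third DNAJB9 probe set was dim, at 8.37 ± 0.171 with shPLEKHO1 and 7.82 ± 0.575 with shNC (SD, n = 3 each), below the lower quartile of every array (15.9 to 16.9), and did not pass (0.08 ± 0.06).

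DNAJC3 codes for P58IPK, a J-domain cochaperone of BiP that was also described as an inhibitor of PERK. Its brightest probe set read 85.8, 95.5 and 81.2 with shPLEKHO1 and 109, 105 and 110.1 with shNC. The groups did not overlap, and DNAJC3 fell by 19.2% (log2 difference -0.31 ± 0.06, limma adjusted p = 0.00549). Its other 2 probe sets were lower without passing, at -0.20 ± 0.10 and -0.14 ± 0.08, and the groups overlapped on both after normalization. The 95% intervals of DNAJB9 (0.62 to 1.04) and DNAJC3 (-0.45 to -0.16) on their brightest probe sets lay on opposite sides of 0.

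**Figure D3:**
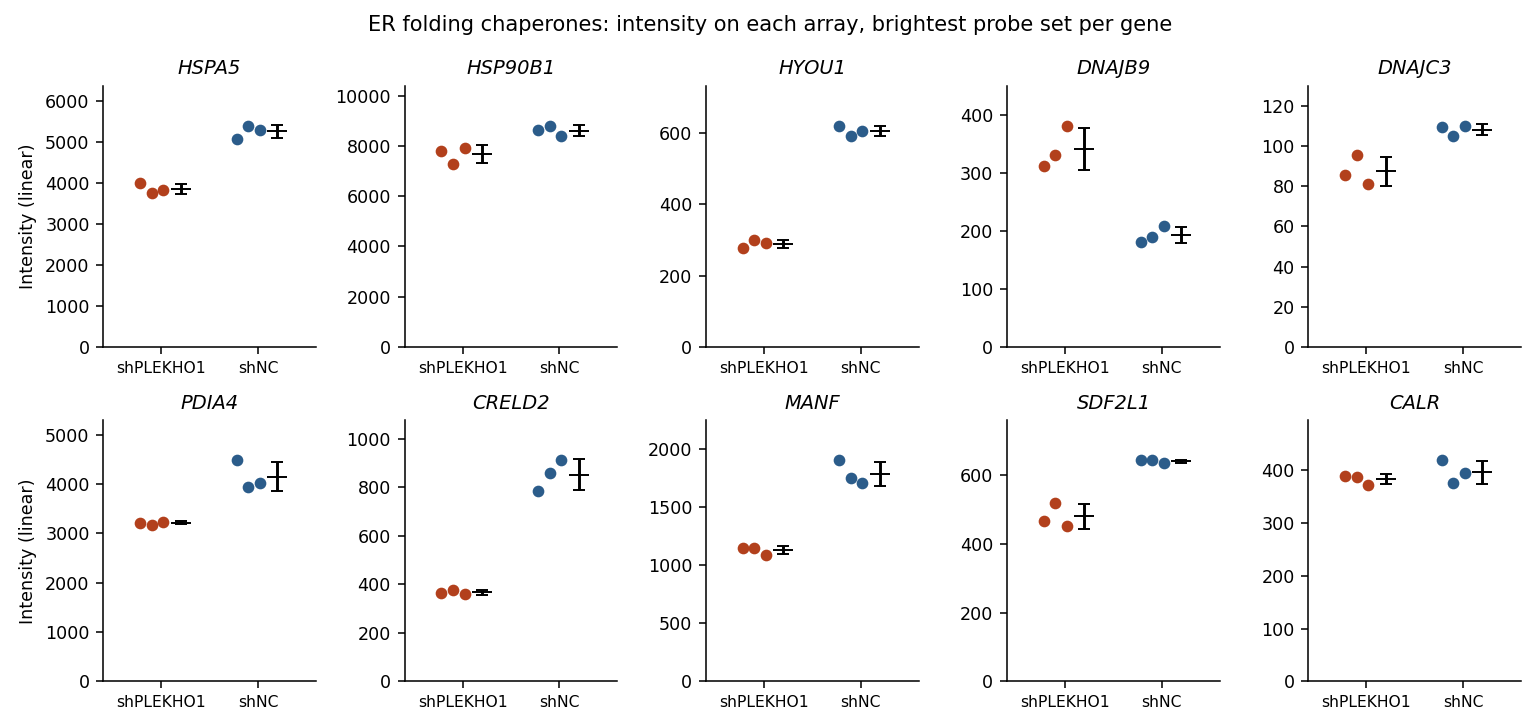
Intensity (linear scale, axes from 0) on each array for the brightest probe set of the 10 genes, with shPLEKHO1 in red and shNC in blue; black bars give the mean and SD of 3 arrays. The groups are apart for 9 of the genes, DNAJB9 being the one with higher shPLEKHO1 values, and overlap for CALR.

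HSP90B1 codes for GRP94, the Hsp90 of the ER, which folds integrins, Toll-like receptors and other secretory clients. Its brightest probe set read 7814, 7266 and 7942 with shPLEKHO1 and 8636, 8812 and 8384 with shNC. Every shPLEKHO1 array was below every shNC array, but the difference was small and did not pass (log2 difference -0.15 ± 0.06, limma adjusted p = 0.0792). On all 7 probe sets the log2 difference was below 0, from -0.27 to -0.15, the groups did not overlap, and 4 of the 7 fell. The probe set with the largest change fell by 17.2%, at 2555 ± 44.9 with shPLEKHO1 and 3104 ± 131 with shNC (SD, n = 3 each; -0.27 ± 0.05, limma adjusted p = 0.00456). One of those that fell, at 2288 ± 118 with shPLEKHO1 and 2719 ± 168 with shNC (SD, n = 3 each, limma adjusted p = 0.0241), did not pass without shPLEKHO1 replicate 1 (0.055) or 2 (0.073) or without shNC replicate 1 (0.0563) or 2 (0.0854). The 95% interval of the brightest HSP90B1 probe set (-0.28 to -0.02) lay above that of HSPA5 (-0.60 to -0.33) and of HYOU1 (-1.17 to -0.95).

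CALR codes for calreticulin, the soluble lectin and calcium-binding chaperone that retains monoglucosylated glycoproteins. Its brighter probe set read 389, 387 and 372 with shPLEKHO1 and 418, 375 and 394 with shNC, and the groups overlapped. Its log2 difference was -0.04 ± 0.05, with a 95% interval from -0.16 to 0.07, which covers changes between a fall of 10.7% and a rise of 5.18%. The other CALR probe set overlapped too (0.03 ± 0.07, limma adjusted p = 0.822). Calnexin (CANX), the membrane-bound relative of calreticulin with the same lectin role, fell (-0.40 ± 0.05 by the brightest of 9 probe sets, each of which fell).

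PDIA4 codes for ERp72, a disulfide isomerase found in complexes with BiP and GRP94. Its brightest probe set read 3218, 3178 and 3237 with shPLEKHO1 and 4480, 3944 and 4010.3 with shNC, with a tighter spread in shPLEKHO1 cells. PDIA4 fell by 22.6% (log2 difference -0.37 ± 0.05, 95% interval -0.49 to -0.25, limma adjusted p = 0.000837). All 3 of its probe sets fell, by closely similar amounts (-0.40 to -0.36).

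CRELD2, a secreted and ER-resident protein with EGF-like repeats and isomerase activity, and MANF, a small ER protein that binds BiP and is secreted under calcium loss, are both induced by ER stress. The brighter CRELD2 probe set read 363, 378 and 361 with shPLEKHO1 and 786, 859.7 and 912 with shNC. The shNC values were more than 2 times the shPLEKHO1 values on every array. CRELD2 was 2.32-fold lower (log2 difference -1.21 ± 0.08, 95% interval -1.39 to -1.04, limma adjusted p = 1.23e-05), the largest fall among the 37 probe sets. The other CRELD2 probe set read 10.98, 11.5 and 10.9 with shPLEKHO1 and 9.91, 10.5 and 10.2 with shNC. It was below the lower quartile of every array and did not pass, though its groups did not overlap (0.11 ± 0.05, limma adjusted p = 0.179). MANF, with a single probe set, read 1147, 1145 and 1089 with shPLEKHO1 and 1900.1, 1747 and 1702 with shNC. The groups were far apart, and MANF was 1.59-fold lower (-0.67 ± 0.05, 95% interval -0.79 to -0.55, limma adjusted p = 3.79e-05).

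SDF2L1 codes for a stress-induced partner of the J-domain protein ERdj3 that keeps the BiP cycle from ending in aggregation. Its single probe set read 467, 520.0 and 453 with shPLEKHO1 and 643, 643 and 634 with shNC. The shNC arrays differed little from each other, and all were above the shPLEKHO1 arrays. SDF2L1 fell by 25.5% (log2 difference -0.42 ± 0.06, 95% interval -0.56 to -0.29, limma adjusted p = 0.000691).

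**Figure D4:**
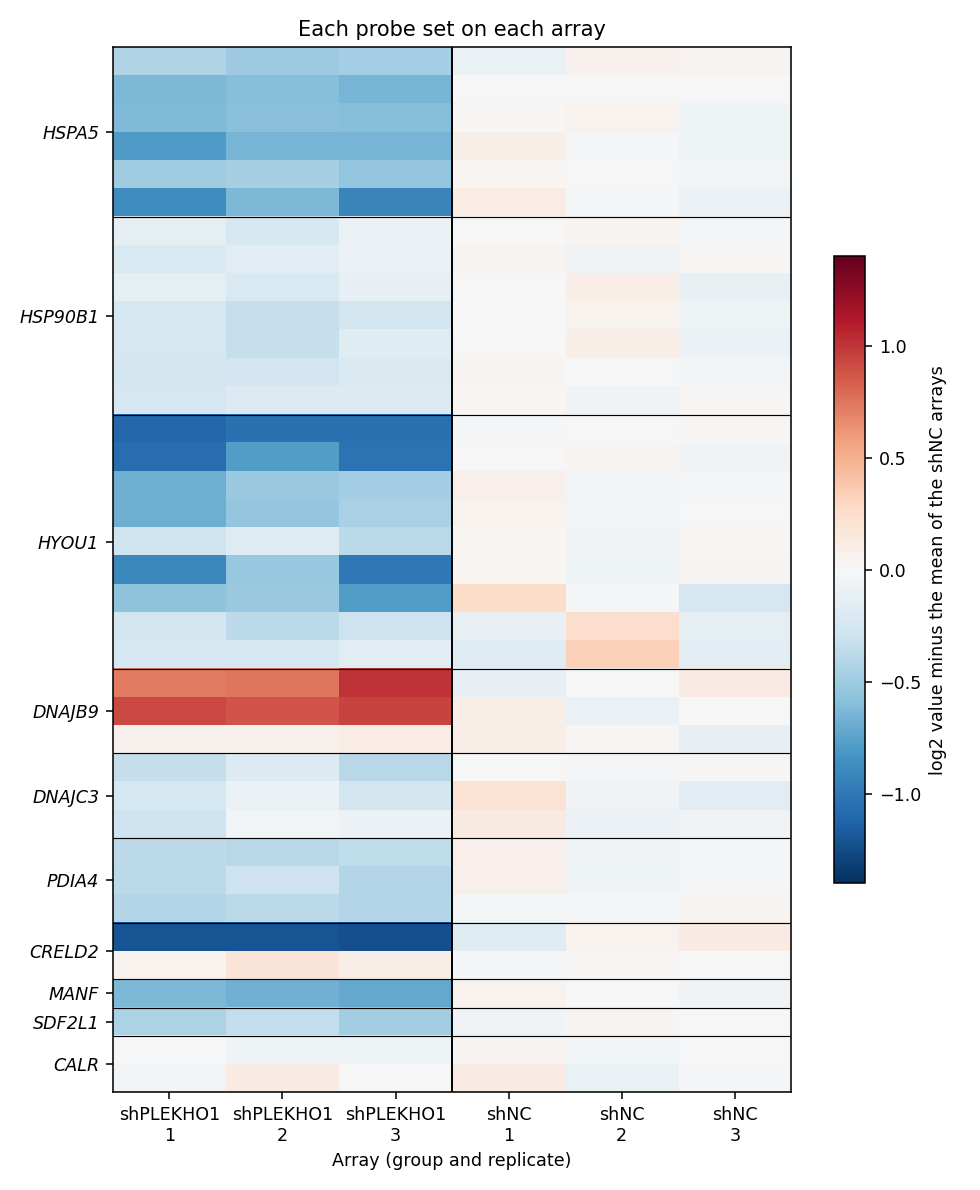
Log2 value of each of the 37 probe sets (down the page, grouped by gene, bright to dim) on each of the 6 arrays, minus the mean of the 3 shNC arrays; blue is lower and red higher. On all 3 shPLEKHO1 arrays HSPA5, PDIA4, MANF and SDF2L1 are blue and the 2 brighter probe sets of DNAJB9 red, while CRELD2 has 1 blue and 1 pale probe set.

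Genes with the promoter elements were found among those that fell, those that rose and those that did not pass. Of 44 genes with an ERSE or ERSE-II, 6 were members, of which 4 fell by their brightest probe set and 2 (HSP90B1 and CALR) did not pass. Of the 4 members with no exact match to either element in the window searched, 3 fell and 1 rose. An element with a mismatch, or one outside the window, would not have been found. Among the other genes with an element 28 were measured. Of these, 7 fell, 4 rose and 17 did not pass, where 15.6% of all genes fell and 17.6% rose. The median log2 difference of the 28 was 0.06. The 7 that fell were TRIM5 (-1.24 ± 0.06), SHCBP1 (-0.96 ± 0.07), RAD9A, XBP1, CANX, SYNPO and CAMTA1. PDIA6 (-0.08 ± 0.05) and HERPUD1 (0.10 ± 0.05) did not pass and SERP1 (0.20 ± 0.05) rose; these 3 genes, all of ER function, were picked after their values were seen.

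Of 32 measured genes in a list of other ER folding factors, read by the brightest probe set, 11 fell, 2 rose and 19 did not pass. Of all genes, 15.6% fell and 17.6% rose. The median log2 difference of the list was -0.07, where that of all genes was 0.01 and that of the 10 chaperones -0.40. PDIA5, a disulfide isomerase, averaged 374 ± 15.7 with shPLEKHO1 and 752 ± 54.4 with shNC (SD, n = 3 each) and was 2.01-fold lower by its 1 probe set. SERPINH1, the collagen chaperone HSP47, was 1.55-fold lower, with a fall on each of 3 probe sets. The membrane-bound thioredoxin TMX1 rose on the brightest (0.45 ± 0.05), yet its 4 probe sets disagreed, 2 up and 1 down. The KDEL receptor KDELR3, which returns escaped chaperones from the Golgi, fell (-0.41 ± 0.05), with both of its probe sets down; the other receptor measured did not pass.

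Of 14 measured relatives of the chaperones outside this group, most of them in the cytosol or mitochondria, 2 fell and 5 rose. Their median log2 difference was 0.03, and of all genes 15.6% fell and 17.6% rose. HSPA4L, a cytosolic relative of HYOU1, averaged 358 ± 19.7 with shPLEKHO1 and 178 ± 8.63 with shNC (SD, n = 3 each) and was 2.02-fold higher, with all 3 of its probe sets up. HSPH1, the cytosolic Hsp110, was 1.48-fold higher and rose on all 8 of its probe sets. HSPA9, the mitochondrial Hsp70, was 1.43-fold higher and rose on all 5. CDNF, the closest relative of MANF, fell (-0.62 ± 0.07) at a low level, 12.3 ± 0.88 with shPLEKHO1 and 19.3 ± 0.683 with shNC (SD, n = 3 each).

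**Figure D5:**
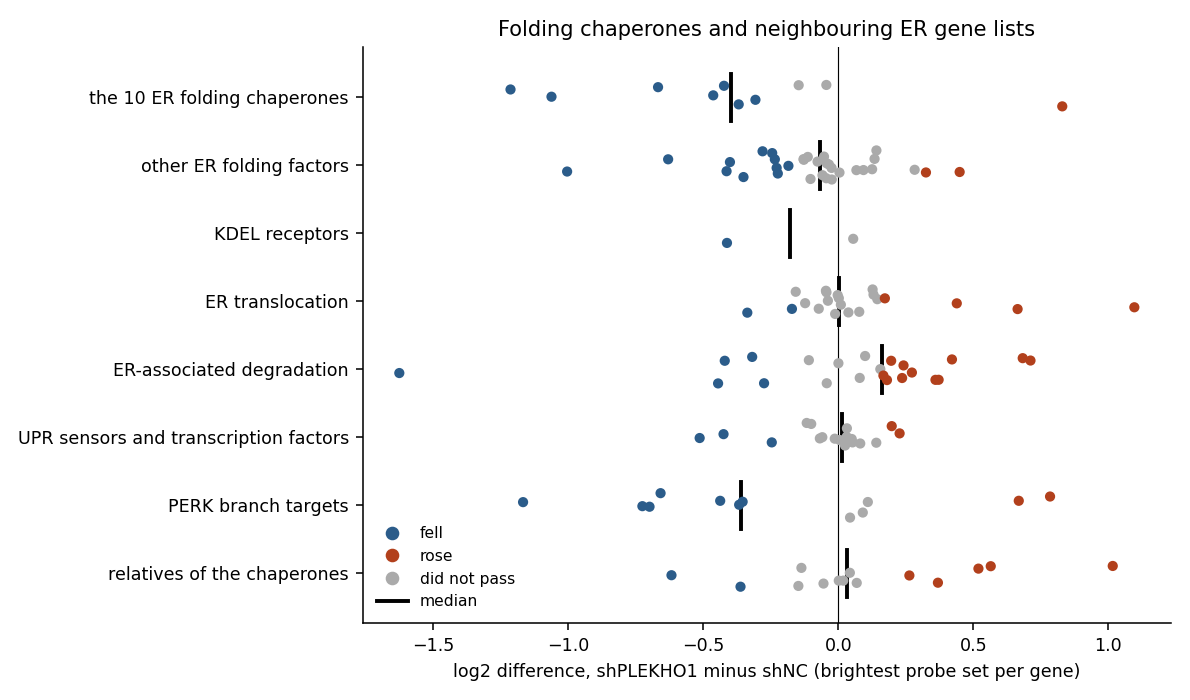
Log2 difference, shPLEKHO1 minus shNC, of each gene by its brightest probe set, for the 10 chaperones and 7 further lists of ER and related genes; blue fell, red rose, grey did not pass, and the black bar is the median. The median of the chaperones is -0.40 and that of ER-associated degradation 0.16, although EDEM1, at -1.63, is the lowest point of all.

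Among the sensors and transcription factors of the unfolded protein response, 3 of 18 fell, 2 rose and 13 did not pass (median 0.01). By the brightest probe set 15.6% of all genes fell and 17.6% rose, so these counts are near or below those shares. XBP1 fell (-0.43 ± 0.05), at 949, 1040.5 and 960.2 with shPLEKHO1 and 1416, 1251 and 1289 with shNC. Its 1 probe set gives no separate reading of the spliced form. The sensors ATF6 (0.08 ± 0.06), IRE1 (ERN1, 0.03 ± 0.06) and PERK (EIF2AK3, 0.05 ± 0.07) did not pass. DDIT3 (CHOP), the stress-induced factor downstream of PERK, fell (-0.51 ± 0.08). CREB3L4 fell (-0.25 ± 0.05) on 1 of its 2 probe sets, while the protease MBTPS2, which cuts ATF6, rose (0.20 ± 0.05). Without shPLEKHO1 replicate 1, shNC replicate 1 or shNC replicate 2, 1 gene of that list rose. Genes listed as targets of the PERK branch fell in 7 of 12 cases and rose in 2 (median -0.36). Whether PERK drove these changes was not tested. DDIT4, an inhibitor of mTOR complex 1, was 2.25-fold lower, ASNS, asparagine synthetase, 1.65-fold lower, and the lipoprotein receptor VLDLR 1.62-fold lower. ATF3, a stress-induced factor, went the other way, 1.72-fold higher, with 6 of its 7 probe sets up. The other gene of the list that rose was PPP1R15A (0.67 ± 0.08).

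ER-associated degradation removes proteins that fail to fold. Of 22 measured genes of this pathway 11 rose, or 7 without shNC replicate 3, while 5 fell (median 0.16). Over all genes 17.6% rose and 15.6% fell. EDEM1 fell on all 5 of its probe sets (-1.63 ± 0.05) and the extraction ATPase VCP on all 4 (-0.42 ± 0.05). AUP1 (0.71 ± 0.05) and SELENOS (0.68 ± 0.05), both part of the retrotranslocation machinery, rose by their brightest probe set only, 1 of 3 and 1 of 2. Genes of ER translocation fell in 2 of 21 cases and rose in 4 (median 0.00142), near or below the shares of all genes. Without shPLEKHO1 replicate 1 or 3, or without shNC replicate 2 or 3, 1 gene of that list fell. The signal peptidase subunit SPCS3 was 2.14-fold higher by its brightest probe set, while of its other 2 probe sets 1 fell. SEC11C (0.66 ± 0.07) rose on 1 of its 2 probe sets, and the translocon-associated SSR3 (0.44 ± 0.05) rose on all 4. The channel subunit SEC61A1 fell (-0.34 ± 0.05) on all 3 of its probe sets.

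The genes whose pattern over the 6 arrays was closest to the mean of the 10 chaperones (standardized log2 values, brightest probe set, 9056 genes of above-median intensity compared) were GLCCI1, DPYSL2, ANXA6, TMEM184B and ACO1, with Pearson r between 0.9991 and 0.9998. Over 6 arrays in 2 groups such a value mostly shows that the groups are apart with little spread, and it is given as a description. Of these 5, GLCCI1 (-0.66 ± 0.05) and ANXA6 (-0.61 ± 0.05) had the largest falls.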

How the data were processed

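The 6 Affymetrix arrays, 3 for each group, carried 1 colour. The deposited values are linear intensity values, 1 per probe set and array, between 4.33 and 19770, and Expression Console is named in the submitters' processing notes. Which version and algorithm made the values, and whether arrays were normalized, is not given in the sources used here. Of 49395 probe sets, 44988 with exactly 1 symbol and no control role were tested. Old gene symbols were replaced, by Entrez identifier, with those of RefSeq for GRCh38.p14 (44961 matched).

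Values were taken as log2(intensity + 1), with a pseudocount of 1, quantile normalized over all probe sets, and fitted by lmFit and eBayes (limma 3.58.1, R 4.3.3) with group as the 1 term. P-values were adjusted by Benjamini-Hochberg over the 44988 probe sets, with a threshold of 0.05. The pseudocount and remaining background understate changes of dim probe sets. Lists were read by the probe set with the highest mean per gene. The members, lists and tests were chosen with earlier results of these data known. Named are all members, PLEKHO1, up to 4 genes of each list with the smallest p among those called, and the 5 genes closest in pattern. Also named are the other genes with a promoter element that fell, the sensors and PPP1R15A. The cell markers given with values were picked after these were seen. Protein sequences were not used here. Alternatives were median centring, no normalization between arrays, no pseudocount, a pseudocount of 16, leaving out the lowest 30% of probe sets, 1 probe set per gene, array weights, a robust fit with a variance trend, a block on the replicate number, and each array left out in turn.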

Additional observations from a re-analysis of the deposited data

How the results depend on the processing

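Of the 37 probe sets, 30 kept their direction and their side of the threshold in every alternative that held them, which was 13 to 15 of the 15, since 1 probe set per gene and the filter on the lowest 30% leave some out. PLEKHO1 fell in all 15 (log2 difference -0.37 to -0.25, limma adjusted p 0.00254 to 0.0444). The number of chaperone probe sets that fell was 23 to 25 when 1 array was left out, and 2 rose each time. With 1 probe set per gene, 7 chaperones fell and 1 rose, and over all genes 2895 fell and 3284 rose; this count differs because fewer probe sets were tested. Of ER translocation genes, 1 fell with median centring, without normalization between arrays and with the replicate block, 4 with a pseudocount of 16 and with a variance trend, and 1 to 2 when 1 array was left out. Of other ER folding factors, 5 rose with a pseudocount of 16, 4 without the lowest 30% of probe sets and 6 with a variance trend. Without the lowest 30%, 1 relative of the chaperones fell. Of the sensors and transcription factors, 1 rose with the replicate block and 1 to 2 when 1 array was left out, and of ER-associated degradation genes 7 to 9 rose then. The cause of these moves was not tested. The dimmer CALR probe set, which never passed, changed sign without shPLEKHO1 replicate 2 or shNC replicate 2, and its log2 difference ranged from -0.0201 to 0.0861 when 1 array was left out. The brightest HSP90B1 probe set passed with a pseudocount of 16 (limma adjusted p = 0.034), without the lowest 30% (0.048) and with a variance trend (0.00141). Another HSP90B1 probe set that had not been called passed in the same settings (limma adjusted p = 0.0336, 0.0467 and 0.00268). The last uncalled one passed with the variance trend (0.011). All 7 HSP90B1 probe sets thus fell with the variance trend, among 28 chaperone probe sets that did. After the mean of its group was taken from each probe set, same-numbered arrays correlated at -0.15, -0.15 and -0.04. With 3 arrays a group, these values cannot settle whether the numbers pair the arrays. The replicate block ended the calls of 1 dim HYOU1 probe set (limma adjusted p = 0.0729) and 1 of HSP90B1 (0.0666). The same HYOU1 probe set did not pass without normalization between arrays (0.055), without a pseudocount (0.0522) and with array weights (0.0577), and a further HSP90B1 probe set did not pass with median centring (0.0628). Dim probe sets of CRELD2 and DNAJB9 limit what can be read from them.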
